A study of Mus musculus with 9 samples.

Results

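The lysosome genes described here are 41 genes in 4 classes, chosen by gene name from a table of 29756 entries. They comprise 15 genes of the proton pump, 15 genes of hydrolases with the activator precursor Psap, 8 genes of membrane proteins and lipid carriers, and 3 genes of MiT/TFE transcription factors, Tfeb, Tfe3 and Mitf. Messenger RNA was sequenced from HT22 cells, a neuronal line immortalised from mouse hippocampus, in 3 control, 3 experimental and 3 intervention libraries. The title of the series speaks of hemin (oxidised heme) and of PPP8, a bioactive micelle. Which group was given hemin, PPP8 or both, at what dose and for how long, is not in the labels, and each group is therefore called by its label alone. Separate cultures are not stated for the replicates either, and p-values then reflect only how far these libraries spread, which may be technical.

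The lysosome is the acidic organelle in which cells break down proteins, lipids, glycans and worn organelles. A proton pump, the V-ATPase, acidifies it: the V1 sector in the cytosol hydrolyses ATP and the V0 sector in the membrane carries the protons. TFEB, TFE3 and MITF are related factors that bind the DNA letters CACGTG and raise transcription of lysosome and autophagy genes. They are held in the cytosol by mTORC1 kinase at the lysosome surface and released by the phosphatase calcineurin, a control of location that mRNA levels do not show.

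All 41 genes had an entry and all 41 passed the filter of at least 1 FPKM (fragments per kilobase of gene, normalised to the depth of the library) in at least 3 libraries. Tfeb reached 1 FPKM in the 3 control libraries alone, so it passed only through the group where it was high and had to differ. Together the genes held 0.787% to 0.86% of the summed FPKM of a library. Because the cells are measured in bulk, fewer cells with a transcript and less transcript per cell cannot be told apart. Of 8 neuronal markers, Tubb3 lay at 5.69 to 8.46 FPKM, Camk2a at 0.20 to 1.91, Snap25 at 0.02 to 1.05 and Syp at 0.04 to 0.76. Nefl reached 0.42 FPKM at most, and Map2, Rbfox3 and Dcx reached 0.22, 0.16 and 0.02.

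Experimental libraries were first compared with control libraries. The genes did not move as a block: Gla, Atp6v1h, Tfe3, Ctsd and Ctsl rose, and Atp6v0a1, Mcoln1, Lipa, Atp6v0d1 and Scarb2 fell. A gene was called at an adjusted p under 0.05 from limma with Benjamini-Hochberg adjustment over all 11974 tested entries. By that rule 10 of the 41 genes rose and 21, Tfeb included, fell, beside 23.5% of all tested entries higher and 50.5% lower. The 3 experimental libraries lay wholly above the 3 control libraries for 11 members and wholly below them for 21, beside 24.7% and 51.5% of all entries. The members' median difference was -0.15 on the log2(FPKM + 1) scale and that of all tested entries was -0.21. Small decreases depend on the scaling, since the median of all entries was itself below 0. After median-ratio scaling, which centres the genes, 19 members were higher and 12 lower, beside 36.6% and 36.4% of all entries. Quantile normalization, which gives every library the same distribution of values, gave 11 members higher and 19 lower, beside 4172 and 4432 of the 11974 entries. The balance of rises and falls among the members therefore depends on the scaling chosen. Of the 31 members called as deposited, 21 kept their calls in every one of up to 17 alternatives that tested them, 8 settings and 9 left-out libraries. Tfeb, which had to differ, is among the 21.

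**Figure D1:**
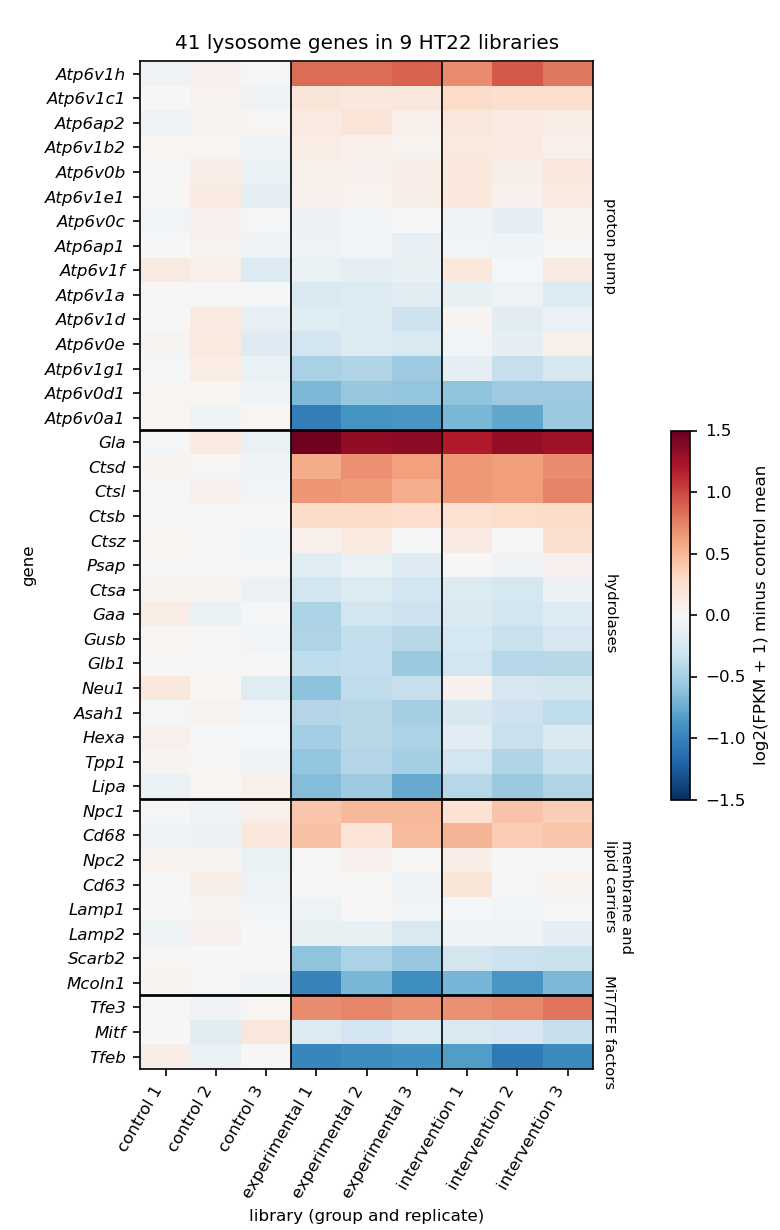
Each row is 1 of 41 genes, ordered within its class by the difference between the experimental and control groups, and each column is 1 of 9 libraries. Colour gives log2(FPKM + 1) minus the mean of the 3 control libraries. Rows for Gla, Atp6v1h, Ctsd, Ctsl and Tfe3 are red in all 6 experimental and intervention libraries, and rows for Tfeb, Atp6v0a1, Atp6v0d1 and Mcoln1 are blue in all 6.

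The 3 factors differed in their levels across groups. Tfeb (mm10, chromosome 17, 47737030 to 47792419, plus strand), the family member best known for lysosome gene control, was at 2.78, 2.29 and 2.56 FPKM in the control libraries and at 0.80, 0.85 and 0.88 in the experimental libraries. Its intervention values were 0.98, 0.69 and 0.83 FPKM. All 6 experimental and intervention libraries lay below every control library, a ratio of 3.02 between the control and experimental means. The log2 difference of experimental from control was -0.94, given without a test because the filter admitted Tfeb through its control values alone. Since these values are low, the log2(FPKM + 1) scale understates the difference.

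Tfe3 (chromosome X, 7762560 to 7775202, plus strand), which binds the same letters, was at 7.53, 7.16 and 7.64 FPKM in control and at 12.84, 13.00 and 12.55 in experimental libraries. In intervention libraries it was at 12.6, 12.9 and 13.7 FPKM, again with no overlap with control. Its log2 difference of experimental from control was 0.71 (SE 0.05, limma adjusted p = 8.81e-07), a ratio of 1.72. Mitf, better known for pigment cells, was at 2.63, 2.26 and 3.12 FPKM in control and at 2.18, 1.99 and 2.18 in experimental libraries. Its call as lower (limma adjusted p = 0.0402) did not hold under median-ratio scaling (adjusted p = 0.63), and its difference turned to 0.09 after quantile normalization. It was also lost without any 1 of the 3 experimental libraries, control replicate 1, control replicate 3 or intervention replicate 2.

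The ratio of Tfe3 to Tfeb within a library does not depend on how libraries are scaled. It was 2.94 ± 0.213 in control, 15.2 ± 0.898 in experimental and 16.0 ± 2.93 in intervention libraries (SD, n = 3 each). The 3 experimental ratios of 14.3 to 16.0 all lay above the 3 control ratios of 2.71 to 3.13. The ratio was formed after the values of both genes were seen and is given as a description, without a test. In these libraries Tfe3 held most of the summed FPKM of Tfeb, Tfe3 and Mitf. This sum was 12.7 ± 0.842 in control and 15.8 ± 0.127 in experimental libraries (SD, n = 3 each).

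**Figure D2:**
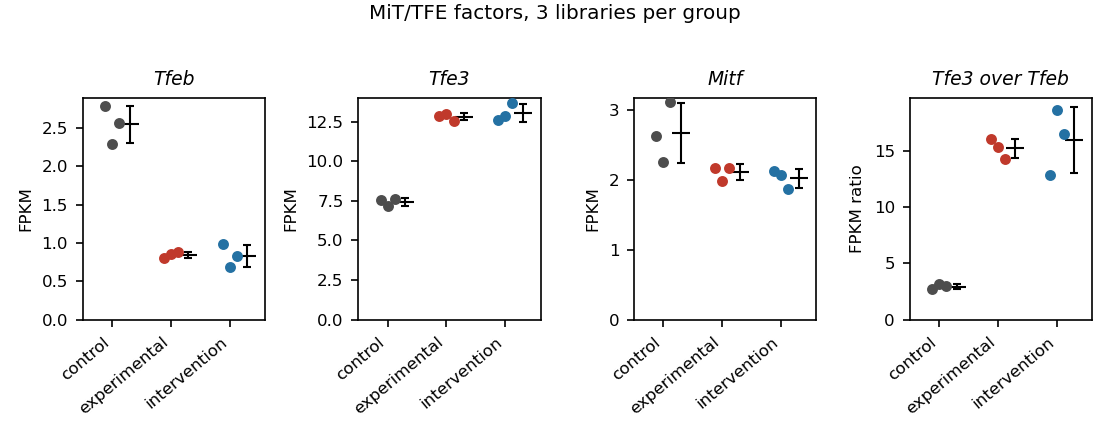
Points are single libraries, 3 per group, and the horizontal tick beside them is the mean with its SD. The first 3 panels give FPKM of Tfeb, Tfe3 and Mitf and the last gives the ratio of Tfe3 to Tfeb, which is 2.71 to 3.13 in control and 12.8 to 18.6 in the other libraries.

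The letters these factors bind stood in promoters of members that rose and of members that fell. Promoter windows of 300 bases (250 before and 50 after a RefSeq start, GRCm38.p6, the assembly also called mm10) were found for 34 of the 41 genes. Windows were not found for Atp6v1b2, Atp6v1c1, Atp6v1g1, Atp6v1h, Ctsb, Asah1 and Npc1. CACGTG, which reads the same on both strands, was in a window of 12 of the 34 members (35.3%), in 12.3% of the 8400 tested genes with a window and in 7.15% of all 32851 windows. The longer TCACGTGA, which contains CACGTG, was in 7 members (20.6%), in 2.43% of tested genes and in 0.974% of all windows. The full 10-letter CLEAR consensus, a longer palindrome around the same letters, was in 0 of the 34, in 0.893% of tested genes and in 0.326% of all windows. TGACNNNGC, a core of the element bound by NRF2, searched on both strands, was in 9 members (26.5%), in 16.9% of tested genes and in 12.4% of all windows.

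Of the 7 members with TCACGTGA, 2 rose in experimental cells (Ctsd and Gla) and 5 fell (Atp6v0d1, Atp6v0e, Atp6v1a, Ctsa and Mcoln1), though the falls of Atp6v1a, Atp6v0e and Ctsa were lost after median-ratio scaling. A match describes letters in this window and shows no binding. The windows of both risers and of the 2 members with the largest falls are shown for this contrast, each 5′ to 3′ on the gene's strand, with every CACGTG in capitals. They are chrX:134600956-134601255 on the minus strand for Gla and chr7:142387778-142388077 on the minus strand for Ctsd. Those of the genes that fell are chr8:3500269-3500568 on the plus strand for Mcoln1 and chr8:105566015-105566314 on the minus strand for Atp6v0d1.
Gla: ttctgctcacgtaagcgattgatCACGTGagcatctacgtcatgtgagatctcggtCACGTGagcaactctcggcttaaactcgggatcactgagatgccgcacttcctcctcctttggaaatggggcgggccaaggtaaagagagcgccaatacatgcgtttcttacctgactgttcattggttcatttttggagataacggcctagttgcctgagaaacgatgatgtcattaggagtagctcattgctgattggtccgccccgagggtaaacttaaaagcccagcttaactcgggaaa
Ctsd: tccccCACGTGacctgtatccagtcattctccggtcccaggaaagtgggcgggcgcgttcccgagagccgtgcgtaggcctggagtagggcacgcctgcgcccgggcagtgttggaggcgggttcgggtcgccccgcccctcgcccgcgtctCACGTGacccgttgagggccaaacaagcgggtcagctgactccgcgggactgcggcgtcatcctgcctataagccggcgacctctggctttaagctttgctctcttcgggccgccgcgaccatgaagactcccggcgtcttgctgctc
Mcoln1: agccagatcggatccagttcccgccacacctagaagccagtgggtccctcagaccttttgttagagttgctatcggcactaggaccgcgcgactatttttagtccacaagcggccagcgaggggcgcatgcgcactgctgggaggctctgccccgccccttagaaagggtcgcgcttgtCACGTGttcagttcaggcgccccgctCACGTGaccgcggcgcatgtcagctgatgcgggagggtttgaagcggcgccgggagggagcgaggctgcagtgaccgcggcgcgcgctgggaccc
Atp6v0d1: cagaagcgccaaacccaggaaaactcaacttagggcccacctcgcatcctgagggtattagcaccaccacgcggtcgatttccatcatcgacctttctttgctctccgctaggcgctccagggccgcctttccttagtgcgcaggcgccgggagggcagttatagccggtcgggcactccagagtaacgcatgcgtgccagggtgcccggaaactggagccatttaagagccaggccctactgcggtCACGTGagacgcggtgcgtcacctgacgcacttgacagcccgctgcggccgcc
In Gla the capitals begin 227 and 194 bases before the start, and in Atp6v0d1 they begin 3 bases before it. Ctsd has CACGTG at 245 and 98 bases before the start, and Mcoln1 at 71 and 45 bases before it. Lamp1, whose mRNA was not called as deposited, had 4 CACGTG matches in its window.

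The called proton pump genes included some that rose and some that fell. Of 15 genes, 3 rose (Atp6v1h, Atp6v1c1 and Atp6ap2) and 6 fell (Atp6v0a1, Atp6v0d1, Atp6v1g1, Atp6v0e, Atp6v1d and Atp6v1a), of which the last 3 lost their calls after median-ratio scaling. The median log2 difference was -0.08. Among all entries 23.5% rose and 50.5% fell, so counts of this size are not a result about the pump. After median-ratio scaling 8 were higher and 3 lower, beside 36.6% and 36.4% of all entries. After quantile normalization 3 were higher and 5 lower, beside 4172 and 4432 of the 11974 entries. The summed FPKM of the 15 genes was 798.1 ± 40.9 in control, 744.5 ± 6.84 in experimental and 790.4 ± 19.5 in intervention libraries (SD, n = 3 each). In the V1 sector 2 of 8 genes rose and 3 fell, and in the V0 sector 0 of 5 rose and 3 fell. After median-ratio scaling these became 4 higher and 1 lower in V1, and 2 higher and 2 lower in V0. After quantile normalization they were 3 higher and 2 lower in V1, and 0 higher and 2 lower in V0.

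Atp6v1h (chromosome 1, 5070018 to 5162529, plus strand), the H subunit that couples ATP hydrolysis to the membrane sector, was the pump gene that rose most. It was at 16.0, 17.4 and 16.4 FPKM in control, 30.5, 30.3 and 31.5 in experimental, and 27.6, 32.4 and 29.5 in intervention libraries. No experimental or intervention value overlapped a control value (log2 difference of experimental from control 0.85, SE 0.06, limma adjusted p = 9.7e-07). Atp6v1c1, the C subunit, rose less, from 24.6 ± 0.953 to 27.8 ± 0.153 FPKM (SD, n = 3 each, limma adjusted p = 0.00483). Atp6ap2, the accessory protein also called the prorenin receptor, was 97.3 ± 4.01 against 88.3 ± 4.23 FPKM (SD, n = 3 each), and its call was lost after quantile normalization (adjusted p = 0.202) and without experimental replicate 1, experimental replicate 2 or control replicate 1.

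Atp6v0a1 (chromosome 11, 101009452 to 101063719, plus strand), the a1 subunit that forms part of the proton path and is the main isoform of neurons, fell most. It was at 13.2, 12.3 and 13.3 FPKM in control, 5.77, 6.49 and 6.63 in experimental, and 7.67, 7.15 and 8.50 in intervention libraries. The 3 groups did not overlap with each other (experimental from control -0.94, SE 0.07, limma adjusted p = 1.38e-06). The ratio of Atp6v1h to Atp6v0a1 within a library was 1.28 ± 0.113 in control, 4.90 ± 0.332 in experimental and 3.87 ± 0.577 in intervention libraries (SD, n = 3 each). This ratio too was formed after the values were seen and is not tested.

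Atp6v0d1, the d1 subunit that joins the 2 sectors, was at 69.9, 69.5 and 65.5 FPKM in control, 42.5, 45.9 and 45.04 in experimental, and 44.7, 46.3 and 46.7 in intervention libraries. Every control value lay above every other value, and the call held after median-ratio scaling (log2 difference -0.36 there and -0.61 as deposited). Atp6v1g1, the G1 subunit of the peripheral stalk, was at 127.6, 139.7 and 120.9 FPKM in control and at 92.1, 93.9 and 88.0 in experimental libraries (limma adjusted p = 8.49e-05). Its intervention values of 118.0, 101.5 and 109.2 FPKM lay between those of the other groups.

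The falls of Atp6v0e and Atp6v1d were smaller and less certain. Atp6v0e was at 17.5, 18.7 and 14.7 FPKM in control and at 13.6, 14.5 and 14.3 in experimental libraries (limma adjusted p = 0.0255), and Atp6v1d at 20.4, 22.5 and 18.6 against 17.9, 17.7 and 16.4 (adjusted p = 0.02). Atp6v1a, the catalytic A subunit, was 31.3 ± 0.83 against 36.1 ± 0.633 FPKM (SD, n = 3 each, limma adjusted p = 0.0035). After median-ratio scaling the differences of Atp6v1a and Atp6v1d were 0.05 and 0.01 and all 3 calls were lost. Leaving out control replicate 2 or experimental replicate 3 also ended the calls of Atp6v0e and Atp6v1d, and leaving out control replicate 1 or experimental replicate 1 that of Atp6v0e.

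Levels differed widely between the genes of subunits that the complex holds side by side. In control libraries the mean ran from 12.9 FPKM for Atp6v0a1 to 129.4 for Atp6v1g1, both per gene length. Atp6v0c, the c subunit of the rotating ring, was listed at 41.1 ± 1.74 FPKM in control and 39.9 ± 1.16 in experimental libraries (SD, n = 3 each). Its processed copy Atp6v0c-ps2 was listed at 213.2 to 228.8 FPKM, so reads of the gene and its copy may not have been told apart and the level of Atp6v0c is uncertain. The stalk subunits Atp6v1e1 and Atp6v1f and the accessory protein Atp6ap1 were at 30.1, 43.1 and 102.1 FPKM on average in experimental libraries. In control they were at 28.7, 47.1 and 107.8 FPKM, and none was called as deposited. After median-ratio scaling Atp6v1e1 was higher by 0.31 and Atp6ap1 by 0.17 (limma adjusted p = 0.00115 and 0.00558), and Atp6v1f was not called. After quantile normalization Atp6ap1 differed by -0.15 (limma adjusted p = 0.00834), and Atp6v1e1 was not called (0.13, adjusted p = 0.0894). Of Atp6v0c and its copy, neither entry was called as deposited in experimental against control (limma adjusted p = 0.527 for Atp6v0c and 0.576 for its copy). After median-ratio scaling Atp6v0c was higher by 0.21 (limma adjusted p = 0.00644). After quantile normalization it was not called (-0.04, adjusted p = 0.526).

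**Figure D3:**
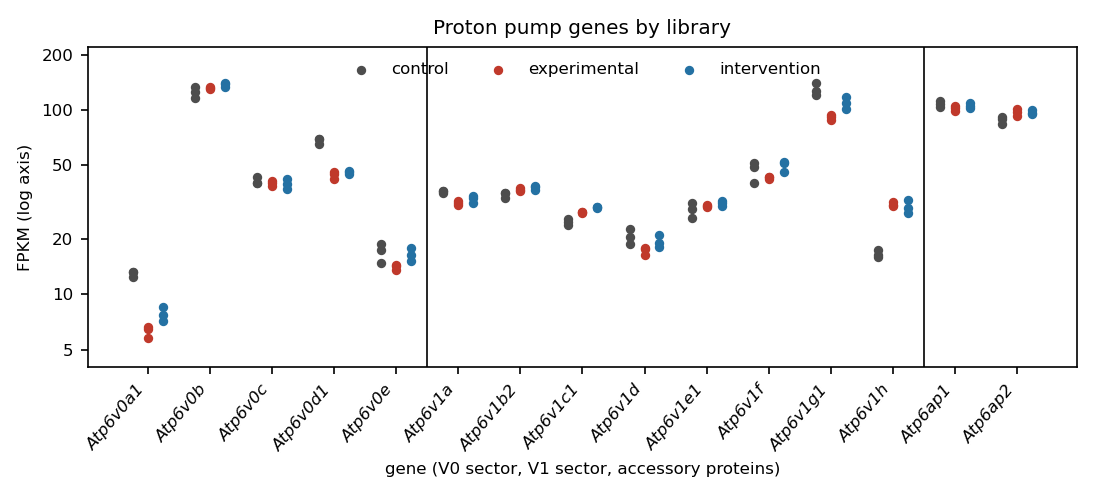
FPKM on a log axis of the 15 pump genes, 1 point per library, with the V0 sector at the left, the V1 sector in the middle and the 2 accessory proteins at the right. Atp6v1h has a mean of 16.6 FPKM in control and of 30.8 and 29.8 in the other groups, and the control points of Atp6v0a1 and Atp6v0d1 stand above all others of their gene.

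Among hydrolases 4 of 15 genes rose as deposited (Gla, Ctsd, Ctsl and Ctsb), 10 fell and Ctsz was not called. The median log2 difference was -0.36. The fall of Psap turned to a rise that was not called after median-ratio scaling. Among all entries 23.5% rose and 50.5% fell. After median-ratio scaling 5 of the 15 were higher and 6 lower, beside 36.6% and 36.4% of all entries. After quantile normalization 4 were higher and 9 lower, beside 4172 and 4432 of the 11974 entries. Gla (chromosome X, 134588149 to 134601125, minus strand), alpha-galactosidase A, which removes terminal galactose from glycolipids, had the largest difference of all 41 genes on the log2(FPKM + 1) scale. It was at 11.6, 13.1 and 11.0 FPKM in control, 34.0, 31.4 and 31.5 in experimental, and 28.2, 31.1 and 30.1 in intervention libraries. The lowest experimental value was above the highest control value (log2 difference 1.37, SE 0.07, limma adjusted p = 1.22e-07, ratio of means 2.72). By ratio of means Tfeb differed more, at 3.02 between control and experimental.

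Ctsd, the aspartyl protease cathepsin D, was at 257.0, 252.4 and 240.3 FPKM in control and at 368.9, 403.4 and 382.7 in experimental libraries. Its intervention values were 393.3, 386.9 and 408.2 FPKM, and no value of either group reached down to control (experimental from control 0.62, SE 0.05, limma adjusted p = 2.07e-06). Of the exon bases of Ctsd 34.4% are shared with the annotated Gm49369, which was at 1.19 FPKM in 1 experimental library and listed at 0 in the others. Ctsl, the cysteine protease cathepsin L, was at 96.2, 101.3 and 94.1 FPKM in control, 154.0, 151.5 and 142.1 in experimental, and 152.5, 150.8 and 162.9 in intervention libraries. Ctsl differed from control by 0.61 in experimental libraries (SE 0.05, limma adjusted p = 2.84e-06), and 26.8% of its exon bases are shared with the annotated Gm47123 and Gm49230, the latter listed at 0. Ctsb, cathepsin B, rose from 58.5 ± 0.32 to 70.8 ± 1.07 FPKM (SD, n = 3 each, limma adjusted p = 0.000125). Ctsb shares 12.8% of its exon bases with Fdft1, a gene of sterol synthesis that fell from 50.9 ± 3.37 to 19.0 ± 1.76 FPKM (SD, n = 3 each). Whether the counting used strand is not given in the sources used here.

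Lipa, the acid lipase that frees cholesterol from its esters, fell most of the hydrolases. It was at 16.5, 18.1 and 18.9 FPKM in control and at 11.0, 12.02 and 10.1 in experimental libraries, with intervention values of 12.99, 11.8 and 12.7. Tpp1, tripeptidyl peptidase 1, was at 49.2, 48.3 and 45.8 FPKM in control, 31.6, 34.9 and 33.2 in experimental, and 39.0, 34.6 and 37.8 in intervention libraries. Hexa, the alpha subunit of hexosaminidase A, which degrades ganglioside GM2, was at 58.9, 55.5 and 55.2 FPKM in control and at 39.3, 42.2 and 40.4 in experimental libraries. Control values were above experimental values without overlap for all 3 genes (limma adjusted p at most 3.24e-05).

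Glb1 (beta-galactosidase), Gusb (beta-glucuronidase) and Asah1 (acid ceramidase) fell with ratios of control to experimental means of 1.38, 1.36 and 1.38, and these calls held after median-ratio scaling. Neu1 (sialidase), Gaa (the glycogen-degrading alpha-glucosidase) and Ctsa (the protective protein that stabilises Neu1 and Glb1) were lower as deposited, with ratios of 1.42, 1.29 and 1.20, and lost their calls after that scaling. Psap, the precursor of the saposins that present lipids to these enzymes, was at 412.1 ± 15.1 against 460.2 ± 5.04 FPKM in control (SD, n = 3 each, limma adjusted p = 0.0118). After median-ratio scaling its difference was 0.09 in the other direction, and without experimental replicate 3 its call as lower was lost. The summed FPKM of the 15 genes, to which Ctsd and Psap contribute most, was 1238.8 ± 25.9 in control, 1336.4 ± 44.5 in experimental and 1427.1 ± 47.4 in intervention libraries (SD, n = 3 each). The ratio of Ctsd to Psap within a library was 0.543 ± 0.0131, 0.934 ± 0.022 and 0.859 ± 0.0097 in the same order, with no overlap between groups. Gla over Glb1, the alpha- and beta-galactosidase genes, was 0.735 ± 0.0791, 2.77 ± 0.197 and 2.44 ± 0.254. Both ratios were formed after the values were seen and are not tested. Ctsz, cathepsin Z, had a mean of 68.0 FPKM in control and 71.1 in experimental libraries and was not called as deposited. After median-ratio scaling it was higher by 0.31 on the log2 scale (limma adjusted p = 0.00109). After quantile normalization Ctsz differed by 0.01 and was not called (adjusted p = 0.906).

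Of the 8 membrane proteins and lipid carriers, Npc1 and Cd68 rose and Mcoln1, Scarb2 and, as deposited, Lamp2 fell, with a median log2 difference of -0.02, beside 23.5% of all entries higher and 50.5% lower. After median-ratio scaling 5 were higher and 2 lower, beside 36.6% and 36.4%. After quantile normalization 3 were higher and 4 lower, beside 4172 and 4432 of the 11974 entries. Mcoln1 (chromosome 8, 3500457 to 3515232, plus strand), the lysosomal calcium channel TRPML1, was at 8.05, 7.90 and 7.36 FPKM in control, 3.38, 4.45 and 3.65 in experimental, and 4.41, 3.78 and 4.48 in intervention libraries. All 3 control values were above every other value (experimental from control -0.87, SE 0.09, limma adjusted p = 1.01e-05). Scarb2, also called LIMP-2, an abundant protein of the lysosome membrane, was at 17.3, 17.0 and 17.1 FPKM in control, 11.0, 12.04 and 11.2 in experimental, and 14.01, 13.5 and 13.4 in intervention libraries. The 3 groups of Scarb2 values did not overlap.

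Npc1 and Npc2 pass cholesterol out of the lysosome one after the other, and only the mRNA of Npc1 was called as deposited. Npc1, the membrane protein, was at 7.20, 7.00 and 7.78 FPKM in control and at 10.1, 10.7 and 10.8 in experimental libraries (log2 difference 0.47, SE 0.07, limma adjusted p = 9.1e-05). Its intervention values were 8.65, 10.2 and 9.72 FPKM. Npc2, the soluble carrier, had a mean of 24.1 FPKM in control and of 24.7 in experimental libraries and was not called as deposited, but was higher after median-ratio scaling. The ratio of Npc1 to Npc2 was 0.305 ± 0.0366 in control, 0.427 ± 0.0121 in experimental and 0.387 ± 0.0474 in intervention libraries (SD, n = 3 each). Its intervention values overlapped those of control, and the ratio was formed after the values were seen.

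Lamp1, the most abundant membrane protein gene of the class, was at 334.7, 343.2 and 326.0 FPKM in control and at 317.8, 335.4 and 325.8 in experimental libraries, and the groups overlapped. Lamp2, its paralogue that also serves chaperone-mediated autophagy, was at 24.7, 27.1 and 26.0 FPKM in control and at 23.9, 23.9 and 21.9 in experimental libraries (limma adjusted p = 0.0277). After median-ratio scaling Lamp1 was higher by 0.22 (called) and Lamp2 by 0.09 (not called) on the log2 scale, and after quantile normalization Lamp1 differed by -0.23 (called). The call of Lamp2 was also lost without experimental replicate 3, control replicate 2 or control replicate 3. Cd63, a tetraspanin of late endosomes, was at 202.4 ± 11.1 in control and 201.0 ± 5.27 FPKM in experimental libraries (SD, n = 3 each), and its copy Cd63-ps was listed at 25.1 to 35.2 FPKM, which makes small differences uncertain. Cd63 was not called as deposited. It was higher by 0.24 after median-ratio scaling and differed by -0.13 after quantile normalization (limma adjusted p = 0.00236 and 0.0284).

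Cd68, best known from macrophages, was low, at 1.12, 1.09 and 1.47 FPKM in control and at 2.02, 1.54 and 2.09 in experimental libraries (limma adjusted p = 0.0071). Its intervention values were 2.17, 1.88 and 1.96 FPKM. The summed level of the 7 microglia and macrophage markers with an entry was 9.92 to 11.3 FPKM in control libraries. It was 1.02 to 1.45 in experimental and 1.45 to 2.23 in intervention libraries. Most of it was Tmem119, with means of 10.3, 0.93 and 1.63 FPKM in the same order. Ptprc and Itgam, which define blood-derived cells and microglia, did not exceed 0.04 FPKM in any library.

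**Figure D4:**
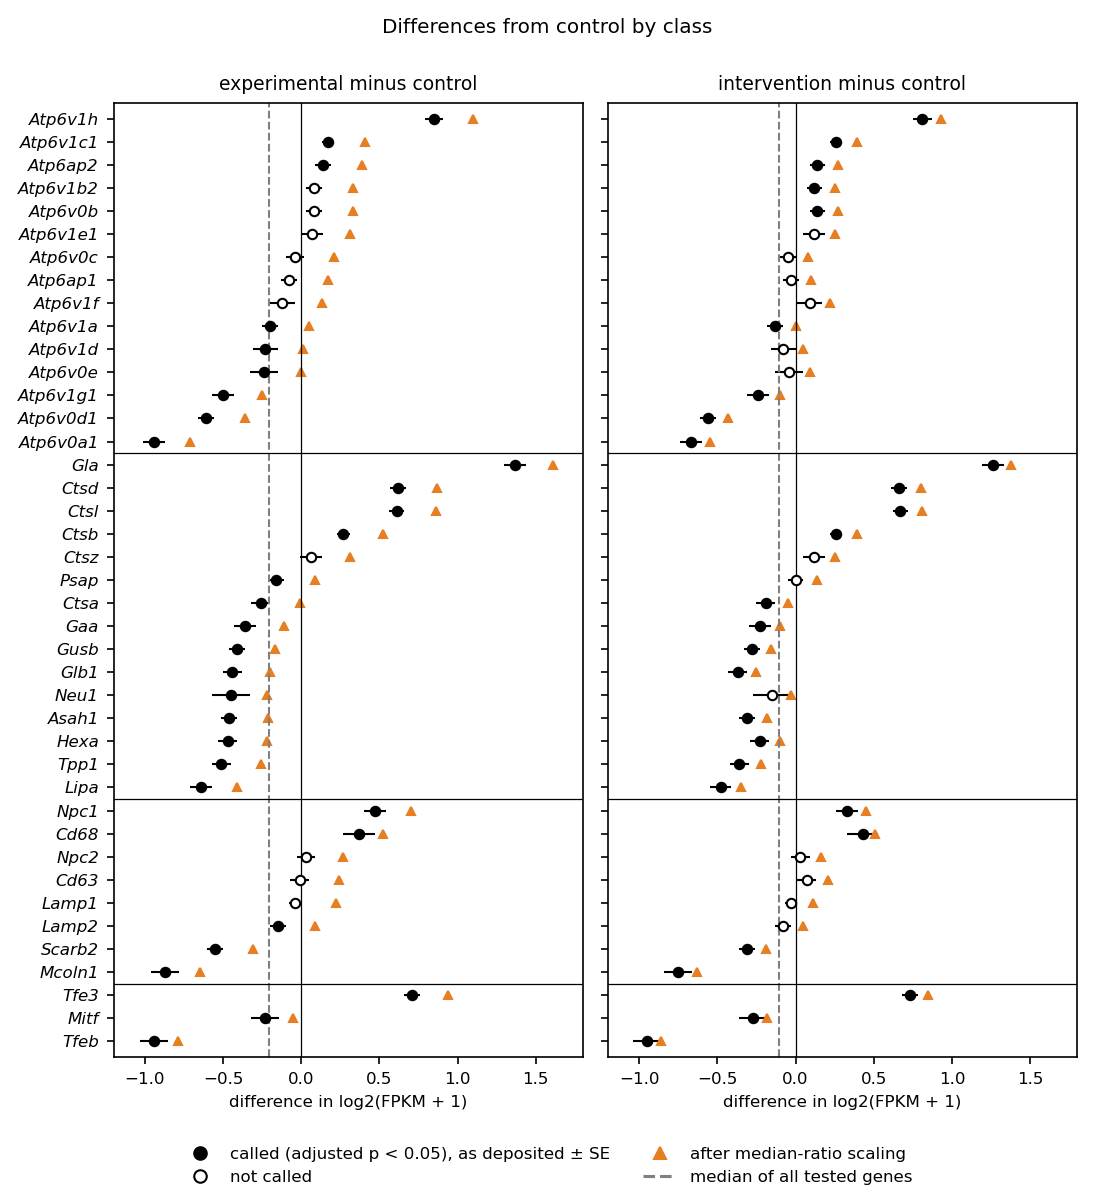
Differences from control in log2(FPKM + 1) of the 41 genes, for the experimental group at the left and the intervention group at the right. Circles with bars are the deposited values with their SE, filled where called, triangles the values after median-ratio scaling, and the dashed line is the median of all tested entries, -0.21 at the left and -0.10 at the right. Gla, Atp6v1h, Ctsd, Ctsl, Npc1 and Tfe3 lie right of 0 under both scalings, and Atp6v0a1, Atp6v0d1, Mcoln1, Lipa and Tfeb lie left of it.

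Intervention libraries were then compared with experimental libraries. The differences among the 41 genes were small, from -0.14 for Npc1 to 0.29 for Neu1 on the log2(FPKM + 1) scale, and neither of those genes was called. By limma 5 genes were higher (Scarb2, Hexa, Atp6v1g1, Atp6v0a1 and Psap) and 0 lower, beside 15.9% of all entries higher and 3.60% lower. At an unadjusted p under 0.05, 12 members were higher and 0 lower, beside 30.6% and 7.38% of all entries, so the share of members higher was near that of all entries. The members' median difference was 0.065 and that of all entries 0.095.

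Each of the 5 genes had been called lower in the experimental group. Both comparisons use the same experimental libraries, so their opposite directions are not independent. Scarb2 stood at 13.6 ± 0.346 FPKM in intervention and 11.4 ± 0.558 in experimental libraries (SD, n = 3 each, limma adjusted p = 0.0172). Hexa stood at 47.9 ± 2.99 against 40.6 ± 1.49 FPKM, with intervention values of 50.6, 44.7 and 48.4 (adjusted p = 0.0245). Atp6v0a1 stood at 7.77 ± 0.681 against 6.30 ± 0.461 FPKM and Atp6v1g1 at 109.6 ± 8.28 against 91.3 ± 3.02 (adjusted p = 0.0323 and 0.0312). Psap was at 458.5, 445.1 and 480.3 FPKM in intervention and at 405.4, 429.4 and 401.6 in experimental libraries (limma adjusted p = 0.0422). Values of the 2 groups did not overlap for any of the 5. Of all 41 members 13 had intervention values wholly above and 1 (Gla) wholly below the experimental values, beside 33.7% and 8.79% of all entries.

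These 5 calls depended on single libraries and on the scaling. The number of genes called higher was 0 without experimental replicate 1, without experimental replicate 3 or without intervention replicate 1, and 1 without intervention replicate 3. It was also 0 after median-ratio scaling, where 4.74% of all entries were higher and 7.90% lower, and at an unadjusted p under 0.05 the scaled values gave 4 members higher and 8 lower, beside 13.8% and 17.3% of all entries. After quantile normalization 1 member was higher, beside 3.77% of all entries.

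Of the 41 genes 13 differed between experimental and control libraries by at least 0.5 on the log2 scale, and among these the difference of intervention from experimental ran from -0.11 to 0.26. For those that were higher than control it was -0.11 for Gla (95% interval -0.26 to 0.04), -0.05 for Atp6v1h (-0.18 to 0.09), 0.03 for Tfe3 (-0.09 to 0.14), 0.04 for Ctsd (-0.07 to 0.15) and 0.06 for Ctsl (-0.06 to 0.17). For those that were lower it was -0.01 for Tfeb (-0.21 to 0.19), 0.05 for Atp6v0d1 (-0.06 to 0.15), 0.12 for Mcoln1 (-0.08 to 0.32), 0.15 for Tpp1 (0.02 to 0.28) and 0.17 for Lipa (0.01 to 0.33). The 3 called genes among the 13 were Atp6v0a1 (0.26, 0.11 to 0.42), Atp6v1g1 (0.26, 0.11 to 0.41) and Scarb2 (0.24, 0.13 to 0.34). The intervals are not adjusted for the number of genes, and a gene that was not called is not shown to be alike in both groups. The 13 were chosen by values of the same experimental libraries, so these differences are not independent of that choice.

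Lastly, intervention libraries were compared with the same control libraries that the first comparison used. Of the 41 genes 12 were higher and 16 lower by limma, beside 24.1% and 41.1% of all entries, and after median-ratio scaling 19 were higher and 10 lower, beside 32.7% and 32.4%. After quantile normalization 10 were higher and 18 lower, beside 3798 and 3913 of the 11974 entries. Tfeb is counted among the lower genes, although the filter admitted it through its control values alone, so it had to differ. Scaling to TPM, the share of each entry in its library, gave 9 higher and 19 lower, beside 19.8% and 46.6%. The alpha-galactosidase gene Gla was 29.8 ± 1.47 against 11.9 ± 1.08 FPKM (SD, n = 3 each, limma adjusted p = 3.47e-07), a log2 difference of 1.26, beside 1.37 for experimental against control. Tfe3 differed by 0.73 and Tfeb by -0.95, beside 0.71 and -0.94. Atp6v0a1 differed by -0.67 beside -0.94, and Lipa by -0.48 beside -0.64. The members' median difference was -0.04 and that of all entries -0.10.

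By class, pump genes were 5 higher and 4 lower, hydrolases 4 and 8, membrane proteins and lipid carriers 2 and 2, and factors 1 and 2, beside 24.1% of all entries higher and 41.1% lower. After median-ratio scaling these were 7 and 2, 6 and 5, 5 and 2, and 1 and 1, beside 32.7% and 32.4%. After quantile normalization they were 3 and 5, 4 and 9, 2 and 3, and 1 and 1, beside 3798 and 3913 of the 11974 entries. Tfeb was counted as a lower factor under each scaling, although it had to differ. Atp6v0b, the c″ subunit of the ring, and Atp6v1b2, the B2 subunit beside the catalytic A subunit, were called higher in intervention libraries than in control. As deposited, neither was called in experimental against control. Atp6v0b was 137.4 ± 4.04 against 124.9 ± 8.59 FPKM and Atp6v1b2 was 37.9 ± 0.93 against 34.8 ± 1.27 (SD, n = 3 each, limma adjusted p = 0.0461 and 0.0394). Both calls were lost with scaling to TPM and without any 1 of the 3 experimental libraries, intervention replicate 1, control replicate 1 or control replicate 3. That of Atp6v0b was also lost without intervention replicate 3, and that of Atp6v1b2 without intervention replicate 2. The direct difference between intervention and experimental libraries was not called for either. After median-ratio scaling both genes were also called higher in experimental against control, each by 0.33 on the log2 scale (limma adjusted p = 0.000256 and 0.000101). After quantile normalization Atp6v1b2 was called higher there (0.12, adjusted p = 0.0233) and Atp6v0b was not called. As deposited, the experimental values of Atp6v1b2 lay wholly above those of control, and those of Atp6v0b overlapped them.

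Other lysosome genes were taken from 6 lists chosen by function, with earlier results of these data known. Of 96 tested genes of these lists 16 rose and 60 fell in experimental against control, with a median of -0.34 on the log2 scale, and 34 were higher and 45 lower after median-ratio scaling. These counts and those of the single lists stand beside 23.5% of all entries higher and 50.5% lower as deposited, and 36.6% and 36.4% after median-ratio scaling. Among 27 further hydrolases with a tested entry 1 rose (Scpep1) and 22 fell, with a median of -0.63, and 5 were higher and 21 lower after median-ratio scaling. Smpd1, acid sphingomyelinase, went from 21.6 ± 1.64 to 6.49 ± 0.42 FPKM, Ids, iduronate sulfatase, from 20.7 ± 1.15 to 7.04 ± 0.154, and Naglu, which degrades heparan sulfate, from 14.6 ± 1.23 to 5.85 ± 0.531 (SD, n = 3 each, limma adjusted p at most 6.63e-07). Hgsnat, another enzyme of heparan sulfate breakdown, was not called as deposited, with a difference of 0.03, but was higher by 0.25 after median-ratio scaling (limma adjusted p = 0.00927). Of the 7 further hydrolase genes that did not pass the filter, among them Ctsk and Ctss, the highest value was 0.69 FPKM.

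Of 4 tested isoforms of pump subunits, Atp6v0e2 fell from 5.06 ± 0.522 to 1.54 ± 0.127 FPKM (SD, n = 3 each) and the others were not called as deposited. After median-ratio scaling 2 were higher, Atp6v0a2 by 0.29 and Tcirg1 by 0.21, and Atp6v0e2 was still lower. Tcirg1 and Atp6v0a2, which encode the a3 and a2 subunits, were at 24.4 and 15.2 FPKM in experimental libraries on average, above the 6.30 of Atp6v0a1. Both were also above Atp6v0a1 in every control library, so this order was the same in both groups. In control Tcirg1 was at 26.03, 24.49 and 24.47 FPKM, Atp6v0a2 at 14.78, 14.08 and 14.7, and Atp6v0a1 at 13.24, 12.34 and 13.27. Of 21 further membrane proteins 5 rose and 13 fell, or 7 and 8 after median-ratio scaling. The largest differences were those of the lipid transporter Abca2, the proton and potassium channel Tmem175 and the cation channel Tpcn1, all lower, with ratios of control to experimental means of 2.13, 3.95 and 2.24. Tmem175 reached 1 FPKM in the 3 control libraries alone, so it passed the filter only through the group where it was high, and its ratio is a description.

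Genes that sort enzymes to the lysosome were 3 higher and 8 lower of 12, or 3 and 4 after median-ratio scaling. M6pr, the cation-dependent mannose 6-phosphate receptor, rose from 34.2 ± 1.89 to 64.8 ± 0.56 FPKM, and Ap1b1 and Gga1, coat adaptors of the same route, fell from 20.6 ± 0.771 to 10.4 ± 1.05 and from 19.7 ± 1.56 to 11.1 ± 0.912 (SD, n = 3 each). Of 18 genes that regulate the factors 1 rose (Fnip2) and 11 fell, or 8 and 7 after median-ratio scaling. Lamtor1 and Lamtor4, subunits of the Ragulator scaffold that anchors mTORC1, went from 19.0 ± 1.72 to 7.75 ± 0.811 and from 10.7 ± 0.696 to 5.85 ± 0.768 FPKM. Ppp3cb, a catalytic subunit of calcineurin, went from 13.4 ± 0.987 to 7.77 ± 0.285 (SD, n = 3 each). As deposited, both Lamtor genes were higher in intervention than in experimental libraries, at 10.2 ± 1.0 and 8.40 ± 1.53 FPKM, and both calls were lost after median-ratio scaling.

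Among 14 genes of lysosome damage responses and known factor targets 6 rose and 5 fell, or 9 and 4 after median-ratio scaling. Sqstm1, the autophagy receptor p62, went from 142.1 ± 4.42 to 1144.5 ± 51.9 FPKM. Gpnmb, a membrane glycoprotein known as a target of this factor family, fell from 203.2 ± 2.88 to 111.3 ± 5.08 FPKM, and Ppargc1a, a coactivator gene, from 10.8 ± 0.391 to 5.66 ± 0.205 (SD, n = 3 each, limma adjusted p at most 7.19e-07). Between intervention and experimental libraries 22 of the 96 genes of all 6 lists were higher and 2 lower as deposited, beside 15.9% and 3.60% of all entries. After median-ratio scaling 1 was higher and 6 lower, beside 4.74% and 7.90%.

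**Figure D5:**
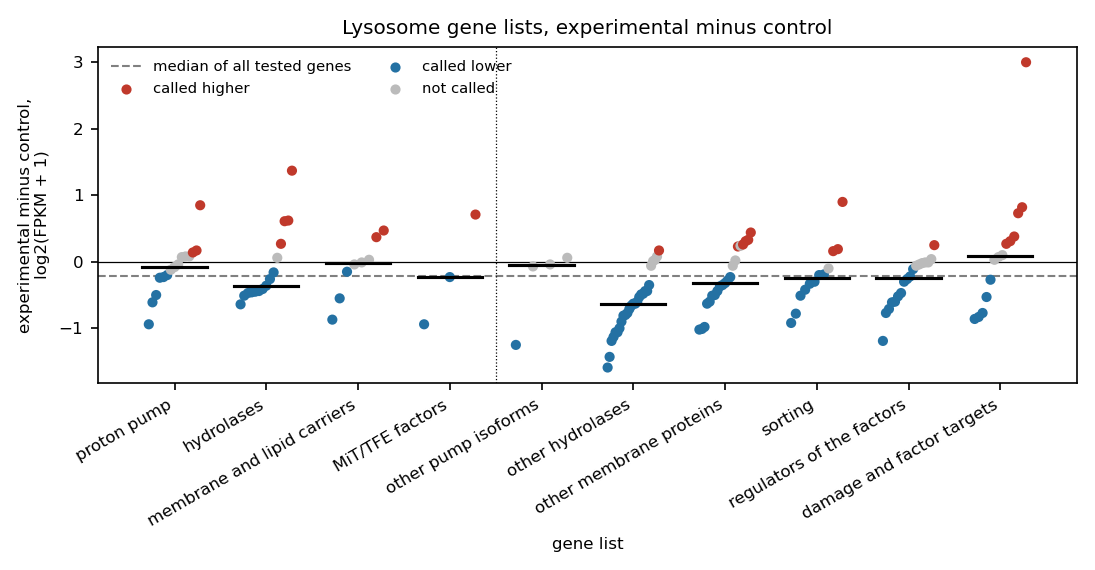
Difference of experimental from control in log2(FPKM + 1), 1 point per tested gene, for the 4 classes of the 41 genes left of the dotted line and 6 lists of other lysosome genes right of it. Black bars are list medians and the dashed line is the median of all tested entries, -0.21. Most points of the further hydrolases lie below that line, and Gla is the highest point of the hydrolase class at 1.37.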

How the data were processed

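The mRNA of 9 HT22 libraries was sequenced on a NovaSeq instrument after RNeasy extraction and SMARTer library preparation, per the labels' protocols and the text on the series' design. FPKM values for 29756 entries are what the authors deposited, in 1 table, and mm10 is named in the submitters' processing notes. Aligner, counter, annotation and strand: not given in the sources used here. Fragment counts were not used, and the depth of each library is unknown: whole reads could not be recovered, since 1438 of 8245 values above 0 for genes under 200 bases (17.4%) would be below 1 read at a depth of 200 M reads. Precision therefore comes from the spread of the replicates, pooled over the 3 groups with a prior from all tested entries, and not from counts. Summed FPKM ran from 316912 to 339943 per library. Where a symbol was repeated (118 entries), the entry with the highest mean kept it.

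Entries with at least 1 FPKM in at least 3 libraries (11974) were tested on log2(FPKM + 1) with limma 3.58.1 in R 4.3.3, with all 9 libraries in 1 fit, a mean-dependent prior variance and Benjamini-Hochberg adjustment in each of 3 comparisons. Tests are 2-sided and a call needs an adjusted p under 0.05. Fold differences on this scale understate those of low genes, so ratios of mean FPKM are also given. The fit was tested on simulated data with known changes. Median-ratio scaling divides each library by the median ratio of its FPKM to the geometric mean. Gene positions are from GENCODE M21 and promoter windows from RefSeq on GRCm38.p6.

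All 41 members could be named, with values per library for those with the largest differences in each class, and up to 3 genes of each other list by the size of their difference. Scpep1, Fnip2, Tcirg1, Atp6v0a2 and Hgsnat, outside that rule, were named after their values were seen. The members and lists were chosen with earlier results of these data known. The alternatives were a pseudocount of 0.1, no filter, a mean of at least 5 FPKM, median-ratio scaling, TPM, quantile normalization, a replicate block, a fit of only the groups compared, and leaving out each library.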

Additional observations from a re-analysis of the deposited data

How the results depend on the processing

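Counts are of the 41 members called by limma. Tfeb is counted where it was tested, although the filter admitted it through its control values alone. In experimental against control 10 were higher and 21 lower as deposited, 19 and 12 after median-ratio scaling, and 11 and 19 after quantile normalization. They were 9 to 11 and 16 to 21 when 1 library was left out. In intervention against control 12 were higher and 16 lower, 19 and 10 after median-ratio scaling, and 10 and 18 after quantile normalization. They were 9 to 13 and 13 to 16 when 1 library was left out. In intervention against experimental 5 were higher, but 1 with no filter, 0 after median-ratio scaling, 1 after quantile normalization, and 0 to 6 when 1 library was left out, while 0 were lower in every setting run. Among members called with or without the scaling, the direction in experimental against control reversed after median-ratio scaling for Atp6v0c (0.21), Atp6v1a (0.05), Atp6v1d (0.01), Atp6ap1 (0.17), Psap (0.09), Lamp1 (0.22), Lamp2 (0.09) and Cd63 (0.24), and after quantile normalization for Mitf (0.09). Atp6ap1, Lamp1 and Cd63 were called higher after median-ratio scaling but lower after quantile normalization (-0.15, -0.23 and -0.13). In intervention against control the direction reversed for Atp6v1a (0.00, adjusted p = 0.981) and Lamp1 (0.11) after median-ratio scaling and for Psap (-0.27) after quantile normalization, and the cause was not tested. Of members called in neither fit, the sign also turned after median-ratio scaling for Atp6v1f in experimental against control (0.13), for Atp6v0c (0.08), Atp6v0e (0.09), Atp6v1d (0.05), Atp6ap1 (0.10) and Lamp2 (0.05) in intervention against control, and for 17 members in intervention against experimental. A mean of at least 5 FPKM left 38 members, without Tfeb, Mitf and Cd68. With the replicate number as a block the count of members higher in intervention against experimental was 2, and the counts were 10 higher and 20 lower in experimental against control and 9 and 15 in intervention against control. Deviations of same-numbered libraries correlated at -0.182 to 0.11, and those of differently numbered libraries at -0.14 to 0.149. No pairing by number was seen, but with 3 libraries per group these values cannot exclude it. With depth unknown, low values such as those of Tfeb, Mitf and Cd68 carry no counting interval.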
